A study of Oryza sativa Japonica Group with 6 samples.

Results

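The Dicer-like genes of rice encode the endoribonucleases that cut double-stranded RNA into small RNAs. They were taken here as 7 loci of 55983 in the gene table, chosen by locus name from those annotated as Dicer homologs. These were LOC_Os03g02970 (DCL1), LOC_Os03g38740 (DCL2a), LOC_Os09g14610 (DCL2b), LOC_Os01g68120 (DCL3a), LOC_Os08g05320 (also annotated Dicer homolog 3a), LOC_Os10g34430 (DCL3b) and LOC_Os04g43050 (DCL4). An eighth locus, LOC_Os09g24954, carries a Dicer homolog 4 annotation and is described with the other small RNA genes.

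RNA-seq libraries came from grains of Zhenong 34, the wild type, labelled as control (3 libraries), and of its sgs3 mutant, labelled with EMS treatment (3 libraries). EMS is a chemical mutagen that leaves many changes across a genome, and the labels give neither the sgs3 lesion, nor whether it was separated from other lesions, nor the age of the grains. They do not say whether the libraries are separate plants, so p-values measure only the spread between libraries, which may be technical.

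In plants, DCL1 releases microRNAs from hairpin precursors, and DCL3 enzymes make the small interfering RNAs that direct DNA methylation at transposons and repeats. DCL2 and DCL4 act on viral RNA and on double-stranded RNA copied from cellular transcripts. SGS3 protects cleaved transcripts while an RNA-dependent RNA polymerase copies them, and DCL4 cuts the product into trans-acting small interfering RNAs, which places SGS3 directly upstream of DCL4.

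The libraries differed beyond their labels. Storage protein genes, the markers of endosperm, took 5.97% of all TPM (a transcript level relative to gene length and to the library total) in wild-type replicate 1, 34.9% and 27.6% in the other wild-type libraries, and 40.8% to 46.1% in the mutant. Genes of cytosolic ribosomal proteins took 3.68% to 16.4% of TPM in the wild type, highest in replicate 1, and 0.628% to 2.53% in the mutant. The endosperm starch synthase gene GBSS1 stood between 2140 and 4790 TPM in every library, while chlorophyll-binding and Rubisco small subunit genes together took at most 0.0411%. The median tested gene was lower in the mutant by a log2 difference of -0.86, and by -0.01 after median-of-ratios scaling, which divides each library by the median ratio of its genes to their means. Each member is therefore given on both scales, and its change is read against these medians. In bulk grain fewer cells of a type and less RNA per cell cannot be told apart.

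Together the 7 genes stood at 34.97, 21.28 and 26.42 TPM in wild-type libraries against 9.69, 14.31 and 18.27 TPM in those of the mutant. The groups did not overlap, with a log2 difference of -0.99 and an exact two-sided permutation p of 0.1, the smallest that 3 libraries against 3 allow. After scaling the sums lay between 16.9 and 20.2 in all 6 libraries, the groups overlapped, and the log2 difference was 0.11 (exact permutation p = 0.4). With TPM recomputed without the storage protein genes the sums still did not overlap, with a log2 difference of -0.59 (exact permutation p = 0.1), beside a median of -0.60 over all tested genes. That median was taken on values with 1 added before the logarithm and the sums were not, so their sizes are not strictly comparable. The lower Dicer total in the mutant was thus seen on both TPM scales and not after median-of-ratios scaling. These sums count LOC_Os08g05320, at 2.98, 4.19 and 4.19 TPM in wild-type libraries and 0 in those of the mutant. With that locus left out, the groups overlapped on both TPM scales. After median-of-ratios scaling every mutant sum then lay above every wild-type sum. The sums without it were not tested.

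**Figure D1:**
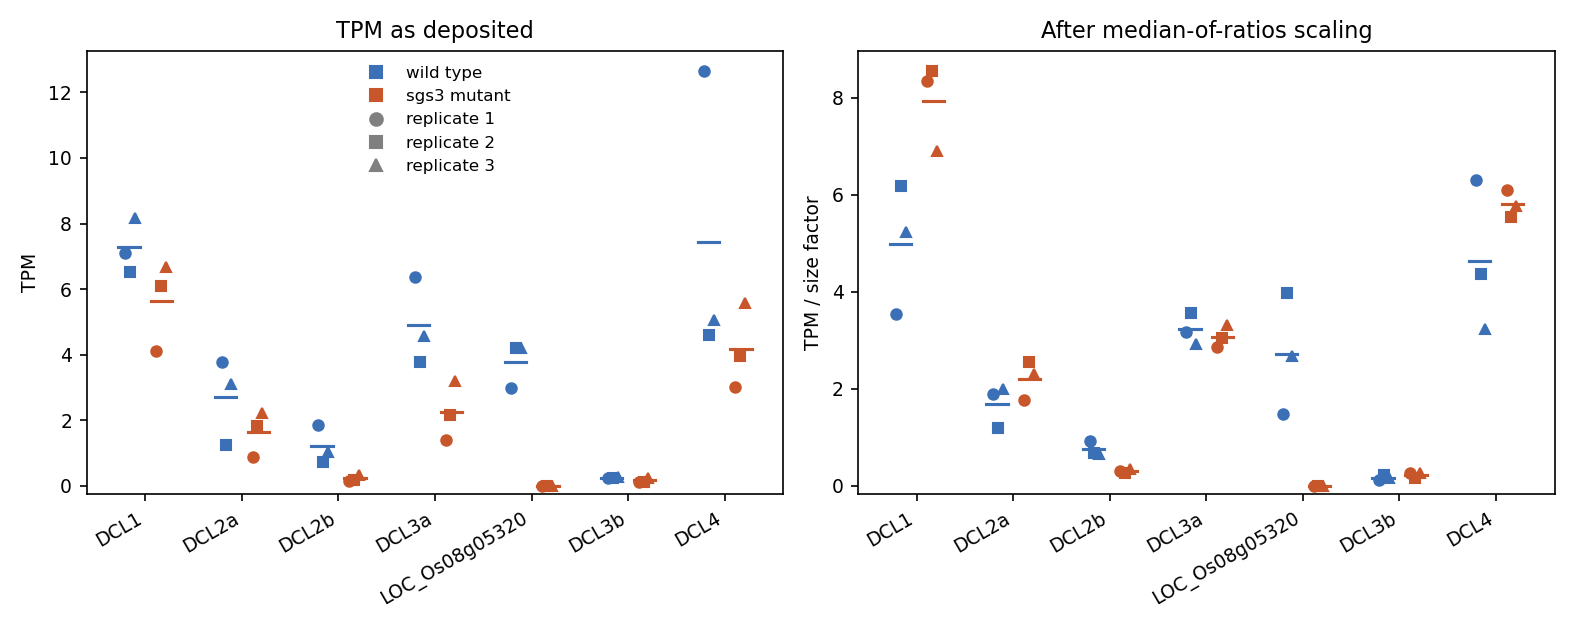
Level of each Dicer gene per library, as deposited TPM (left) and divided by the library size factor (right). Points are libraries (marker shape gives the replicate, blue wild type, orange sgs3 mutant) and short lines are group means of 3 libraries; LOC_Os08g05320 lies at 0 in the 3 mutant libraries on both scales.

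In the wild type the order of mean TPM was DCL4 (7.43 ± 4.51, SD, n = 3), DCL1 (7.27 ± 0.841), DCL3a (4.91 ± 1.34), LOC_Os08g05320 (3.79 ± 0.699), DCL2a (2.71 ± 1.31), DCL2b (1.20 ± 0.587) and DCL3b (0.243 ± 0.0153). The library ranges of neighbours in this order were apart only between DCL1 and DCL3a and between DCL2b and DCL3b. In the mutant DCL1 led at 5.62 ± 1.33 TPM (SD, n = 3), ahead of DCL4 at 4.18 ± 1.30, DCL3a at 2.26 ± 0.898 and DCL2a at 1.64 ± 0.696. There the neighbours whose ranges were apart were DCL2a and DCL2b, and DCL3b and LOC_Os08g05320. DCL1 and DCL4 exchanged the first place, but DCL4 exceeded DCL1 in only 1 of 3 wild-type libraries, replicate 1.

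Of the 7 genes, 5 had 1 TPM or more in 3 or more libraries, and limma tested these within a fit to 16352 genes. The fifth, LOC_Os08g05320, passed that minimum only through the wild type and is listed at 0 in the mutant. It was thus tested only because its groups differ, and its call is no evidence of a change in the family. Of the other 4, none fell or rose at an adjusted p under 0.05 on the TPM scale, where 26.3% of all tested genes fell and 1.55% rose. None of the 4 did so after scaling either, where 1.03% of tested genes fell and 1.60% rose. At an unadjusted p under 0.05 limma gave 1 of the 4 on each scale. This was DCL3a on TPM, which was lower, as were 48.9% of tested genes at that threshold (2.65% were higher). After scaling it was DCL1, which was higher, as were 15.4% of tested genes (17.5% were lower). Of the 4, only DCL3a had every mutant library below every wild-type library on the TPM scale, a pattern held by 52.6% of tested genes. After scaling none of the 4 did so (background 20.4%). Only DCL1 then had every mutant library above every wild-type library (background 17.0%). DCL2b, which was not tested, and LOC_Os08g05320 lay below on both scales and are not set against these shares.

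DCL1, the microRNA-producing enzyme, stood at 7.11, 6.52 and 8.18 TPM in wild-type libraries against 4.12, 6.08 and 6.67 TPM in those of the mutant. The groups overlapped, with wild-type replicate 2 below mutant replicate 3. The log2 fold change was -0.34 ± 0.33 (SE; adjusted p = 0.406, limma), against the median of -0.86. It ranged from -0.45 to -0.16 with 1 library left out, lowest in size without mutant replicate 1, and was -0.00031 on TPM recomputed without storage protein genes. After scaling the levels were 3.54, 6.17 and 5.22 (wild type) against 8.35, 8.54 and 6.89 (mutant). Every mutant library then lay above every wild-type library, with a log2 fold change of 0.60 (SE 0.24) that did not pass adjustment (limma adjusted p = 0.133) and ranged from 0.41 to 0.74 with 1 library left out. The direction of DCL1 therefore depended on the scale.

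DCL4, the enzyme that acts downstream of SGS3, stood at 12.64, 4.60 and 5.06 TPM in wild-type libraries against 3.01, 3.95 and 5.58 TPM in those of the mutant. Wild-type replicate 1 stood far above the others, and the remaining wild-type libraries lay inside the mutant range. The log2 fold change of -0.61 ± 0.43 (SE; adjusted p = 0.263, limma) became -0.20 without that library (adjusted p = 0.692) and reached -0.84 without wild-type replicate 2 (adjusted p = 0.152). On TPM without storage protein genes it was -0.29. After scaling DCL4 was at 6.29, 4.36 and 3.23 (wild type) against 6.10, 5.55 and 5.77 (mutant). The groups overlapped and the log2 fold change was 0.31 ± 0.24 (SE; adjusted p = 0.393, limma), opposite in sign to the TPM value. It was 0.51 without wild-type replicate 1 (limma adjusted p = 0.196) and 0.12 without wild-type replicate 3 (adjusted p = 0.758).

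DCL2a, of the antiviral DCL2 class, stood at 3.8, 1.3 and 3.1 TPM in wild-type libraries against 0.87, 1.8 and 2.2 TPM in those of the mutant. The groups overlapped, since wild-type replicate 2 was below mutant replicates 2 and 3. Its log2 fold change was -0.46 ± 0.39 (SE; adjusted p = 0.338, limma), and 0.26 after scaling (SE 0.21, adjusted p = 0.409). On TPM it was -0.24 without wild-type replicate 1, -0.23 without mutant replicate 1 and -0.79 without wild-type replicate 2 (limma adjusted p = 0.101), and -0.22 without storage protein genes. The scaled value became 0.12 without wild-type replicate 2.

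DCL2b, the other gene of that class, stood at 1.85, 0.710 and 1.04 TPM in wild-type libraries against 0.150, 0.190 and 0.340 TPM in those of the mutant. Each mutant library was below each wild-type library. The same held after scaling, at 0.921, 0.672 and 0.664 in the wild type against 0.304, 0.267 and 0.351 in the mutant. DCL2b reached 1 TPM in only 2 libraries and so was not tested; in a fit without the filter its log2(TPM + 1) difference was -0.81 (limma adjusted p = 0.118), and -0.42 after scaling (adjusted p = 0.166). At these levels the added 1 TPM makes the fitted difference smaller than the ratio of the TPM values.

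DCL3a, the enzyme of the DNA methylation pathway, stood at 6.38, 3.77 and 4.58 TPM in wild-type libraries against 1.41, 2.17 and 3.20 TPM in those of the mutant. The groups did not overlap. The log2 fold change of -0.87 ± 0.35 (SE; adjusted p = 0.0804, limma) was close to the median of all tested genes, -0.86. It ranged from -1.07 to -0.67 with 1 library left out (-0.70 without wild-type replicate 1) and was -0.63 without storage protein genes, beside a median of -0.60. After scaling the values ran from 2.93 to 3.57 (wild type) and from 2.86 to 3.31 (mutant). They overlapped, and the log2 fold change was -0.05 ± 0.18 (SE; adjusted p = 0.855, limma).

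DCL3b, known in rice for phased small RNAs of the panicle, stood between 0.230 and 0.260 TPM in wild-type libraries against 0.130, 0.110 and 0.250 TPM in those of the mutant. The groups overlapped at levels under 1 TPM in every library, and the gene was not tested. In the fit without the filter its log2(TPM + 1) difference was -0.10 (limma adjusted p = 0.365), and 0.07 after scaling (adjusted p = 0.574).

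**Figure D2:**
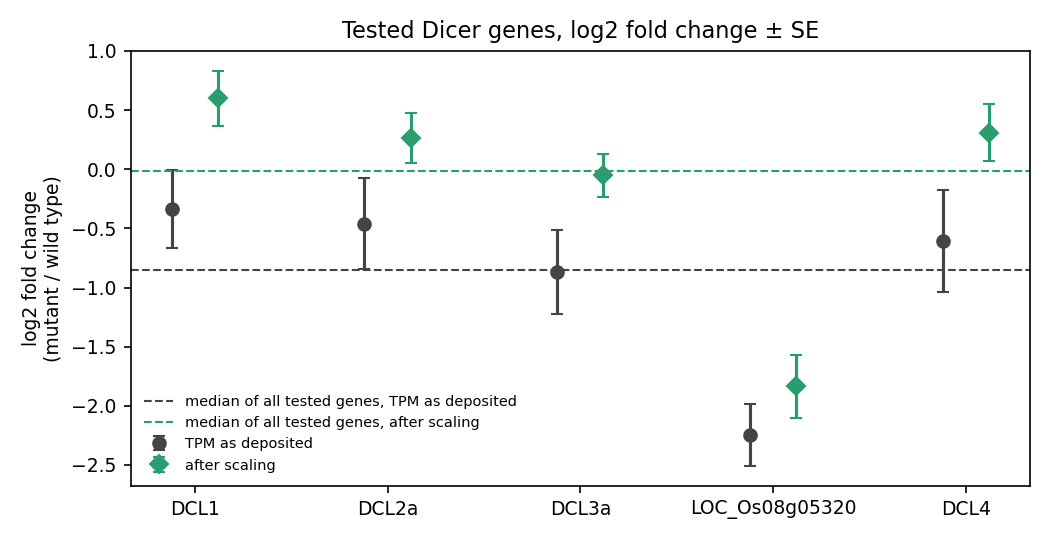
Log2 fold change (mutant over wild type, on log2(TPM + 1)) of the 5 tested Dicer genes with SE, on deposited TPM (circles) and after scaling (diamonds). Dashed lines mark the median of all 16352 tested genes, -0.86 and -0.01; DCL3a lies close to the median on both scales, and LOC_Os08g05320 lies below it.

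LOC_Os08g05320 stood apart from the other members. It was at 2.98, 4.19 and 4.19 TPM in wild-type grain, and each mutant library lists it at 0, so no fold is given. It passed the filter only through the wild type, and such a gene had to differ between the groups. The limma adjusted p was 0.00368 on TPM and 0.0167 after scaling, and the fitted log2 difference depended on the pseudocount (-2.25 with 1 added, -5.26 with 0.1). After scaling the adjusted p was above 0.05 without wild-type replicate 3 (0.0680), without mutant replicate 1 (0.0861) and without mutant replicate 2 (0.0918). Genes with this pattern, at 1 TPM or more in all wild-type libraries and at 0 in all mutant libraries, numbered 55 of 14749 (0.373%), and 38 of 12199 genes (0.312%) showed the reverse.

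The annotation of LOC_Os08g05320 lists no protein domain, while the other 6 members list a ribonuclease III domain and a PAZ domain, which holds the end of the RNA. Its sequence was not analysed here, and reads that match both it and DCL3a could be split between them. The genes next to it by locus name did not all share its pattern. Most of them, among them the adjacent LOC_Os08g05330, were at or near 0 TPM in both groups and could not show it. LOC_Os08g05310 was at 0.350, 0.110 and 0.110 TPM across wild-type libraries, with 0 in all mutant ones, whereas LOC_Os08g05340 had 5.23 ± 1.69 TPM (SD, n = 3, wild type) and 5.55 ± 1.81 TPM (mutant). LOC_Os08g05280 was at 68.2 ± 33.5 and 4.83 ± 1.02 TPM. These neighbours were named after their values were seen.

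The make-up of the summed Dicer transcripts does not depend on the library scale. DCL1 made up 20.3%, 30.6% and 31.0% of it in wild-type libraries, against 42.5%, 42.5% and 36.5% in those of the mutant, without overlap. With LOC_Os08g05320 left out of the sum, the DCL1 share was 22.2%, 38.2% and 36.8% in the wild type, which overlapped the mutant range. The DCL3a share was then 19.9%, 22.1% and 20.6% in wild-type libraries, above the mutant shares of 14.6%, 15.2% and 17.5%. DCL2b made up 4.19% ± 1.0 (SD, n = 3) in wild-type libraries against 1.58% ± 0.268, also without overlap. DCL3a (17.8% ± 0.456 and 15.7% ± 1.56), DCL4 (25.6% ± 9.18 and 29.7% ± 1.87), DCL2a (9.48% ± 3.16 and 11.3% ± 2.0) and DCL3b (0.923% ± 0.241 and 1.16% ± 0.339) overlapped in the sum of all 7. Overlap for DCL1 and DCL3a thus depended on whether LOC_Os08g05320 was counted. LOC_Os08g05320 made up 14.7% ± 5.68 of the wild-type sum.

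**Figure D3:**
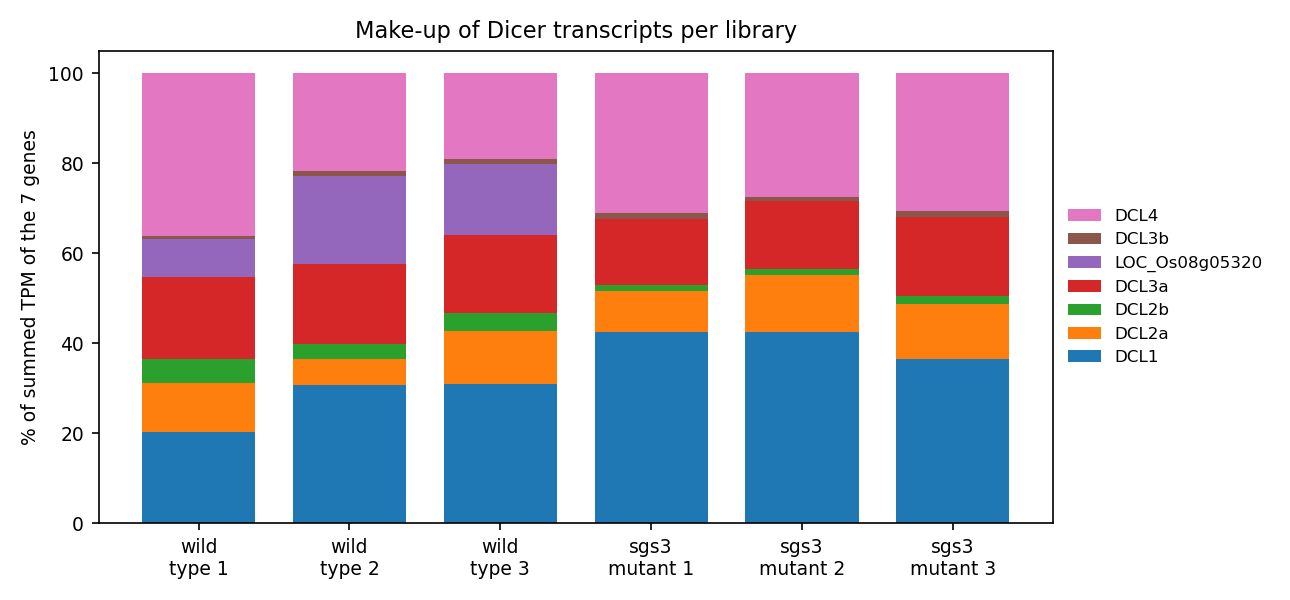
Percentage of the summed TPM of the 7 Dicer genes contributed by each gene, one bar per library. The DCL1 segment runs from 20.3% to 31.0% (wild type) and from 36.5% to 42.5% (mutant), and the LOC_Os08g05320 segment is absent from the mutant bars.

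The splicing tables held 6 events in 3 of the 7 genes, out of 12313 events in all; the other 4 genes had none. Of the 6, only a pair of DCL4 exons listed as mutually exclusive reached 20 junction reads in every library. They lie on chromosome 4, minus strand, at 25479186 to 25479397 (212 bases) and 25479873 to 25479973 (101 bases), in coordinates whose build no source used here gives. The form counted as included has an effective length of 249, the same as in the separate skipping event of the 101-base exon. Reads of that form against the other were 8 and 23, and 9 and 30, in the 2 wild-type libraries. They were 9 and 18, 15 and 19, and 25 and 29 in the 3 mutant libraries.

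The inclusion level was thus 0.294 and 0.264 (wild type) against 0.374, 0.486 and 0.508 (mutant), without overlap. The difference of 0.177 did not pass a quasi-binomial model over 5471 events (p = 0.0320, adjusted p = 0.432). That model called 26 events (0.475%), 1 of them among the 139 tested pairs of mutually exclusive exons (0.719%). On simulated data it recovered no planted change after adjustment, so not passing does not show that the pair was unchanged. Under a second moderation of the spread, added after the first model's results were seen, p was 0.0730 and the adjusted p 0.736, with 12 events called. With limma on logit inclusion levels p was 0.130 and the adjusted p 0.630, with 14 events called. The authors' deposited table gives this event an FDR of 0.0795. The table lists the same 4 transcripts for both exons, and in the skipping events of each exon only 1 of 191 reads and 1 of 139 reads skipped it. In those events each exon is a neighbour of the other, so both were mostly kept together. The level of the pair is therefore a ratio of junction reads and not a shown choice between the exons.

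Events with fewer reads carried the other differences. In DCL4 a 48-base exon (25486650 to 25486697) had 4 including and 0 skipping reads, 3 and 1, and 0 and 2 in the wild type, against 0 and 5, 0 and 5, and 0 and 4 in the mutant. No mutant read of 14 included it, and 1 wild-type library likewise had none. With the mutant libraries pooled, a count of 0 allows a share of including reads of up to 21.4% (3 reads of 14). This bound holds counting error only and, unlike the inclusion level, is not corrected for the lengths of the forms. The authors' deposited table gives it an FDR of 0.00191. In DCL3a, on chromosome 1, an alternative 5′ splice site adds 37 bases (39599420 to 39599456); reads for the longer and shorter forms were 1 and 3, and 5 and 3, in the wild type, and 2 and 0, 6 and 1, and 3 and 1 in the mutant. The authors' deposited table gives that event an FDR of 0.00671. Both fell under the 20-read minimum and were not tested here, and a level from so few reads is imprecise. The skipped exon of DCL3b had 5 reads in all.

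**Figure D4:**
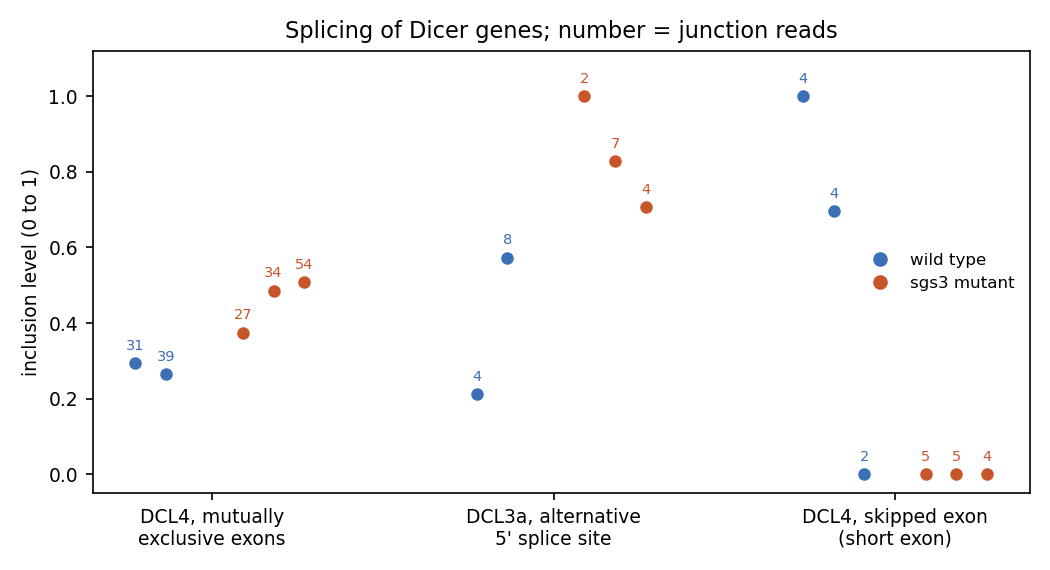
Inclusion level (0 to 1) of 3 splicing events in DCL4 and DCL3a, with the number of junction reads above each point. Points are libraries, which carry no replicate number in these tables. The DCL4 exon pair runs from 0.264 to 0.294 (wild type) and from 0.374 to 0.508 (mutant). Its level is a ratio of junction reads and not a shown choice between the exons.

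Beside the Dicer genes, 66 other small RNA pathway genes were listed by annotation and 43 were tested. On TPM 10 of the 43 fell and 0 rose in limma, where 26.3% of all tested genes fell. At an unadjusted p under 0.05, 22 were lower and 0 higher, against 48.9% and 2.65% of all tested genes. The lists had a median log2 fold change of -0.97 against -0.86 for all tested genes. After scaling 0 fell and 0 rose (8 lower and 1 higher at an unadjusted p under 0.05, against 17.5% and 15.4% of all tested genes), with a median of -0.06 against -0.01. The share that fell on TPM was close to that of all tested genes, 26.3%, and the genes were 5 of 16 argonaute genes, which load the small RNAs, 3 of 8 genes of RNA polymerases IV and V, 1 of 9 double-stranded RNA-binding protein genes and 1 of 2 SGS3-annotated genes. The double-stranded RNA-binding protein gene that fell, LOC_Os09g37006, is annotated as interleukin enhancer-binding factor 3-A and matched the list only through an alternative name. Neither of the 2 tested RNA-dependent RNA polymerase genes had an unadjusted p under 0.05.

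AGO18, LOC_Os07g28850, was at 10.96, 8.89 and 10.16 TPM in wild-type libraries against 1.49, 2.33 and 3.59 TPM in those of the mutant. Its log2 fold change was -1.71 ± 0.35 (SE; adjusted p = 0.0436, limma), and after scaling its adjusted p was 0.0800. The AGO2-annotated LOC_Os03g52490 (log2 fold change -2.63) and the SGS3 homolog LOC_Os12g09580 (-1.96) had the same adjusted p on TPM and did not pass after scaling (0.0892 and 0.0978). The other SGS3-annotated locus, LOC_Os12g09590, was at -0.31 on TPM (limma adjusted p = 0.417) and 0.50 after scaling (adjusted p = 0.238). Named for their place beside DCL4, AGO7 (LOC_Os03g33650) stood between 0.0100 and 0.160 TPM and the RNA-dependent RNA polymerase SHL2 (LOC_Os01g34350) between 0.270 and 1.17 TPM, both too low to be tested.

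The further Dicer homolog 4 locus, LOC_Os09g24954, was at 4.2, 1.01 and 2.0 TPM in wild-type libraries against 1.09, 1.69 and 2.43 TPM in those of the mutant. The groups overlapped, and wild-type replicate 1 was the highest library, as it was for DCL4. Its log2 fold change was -0.23 (limma adjusted p = 0.640), and 0.49 after scaling (adjusted p = 0.171).

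**Figure D5:**
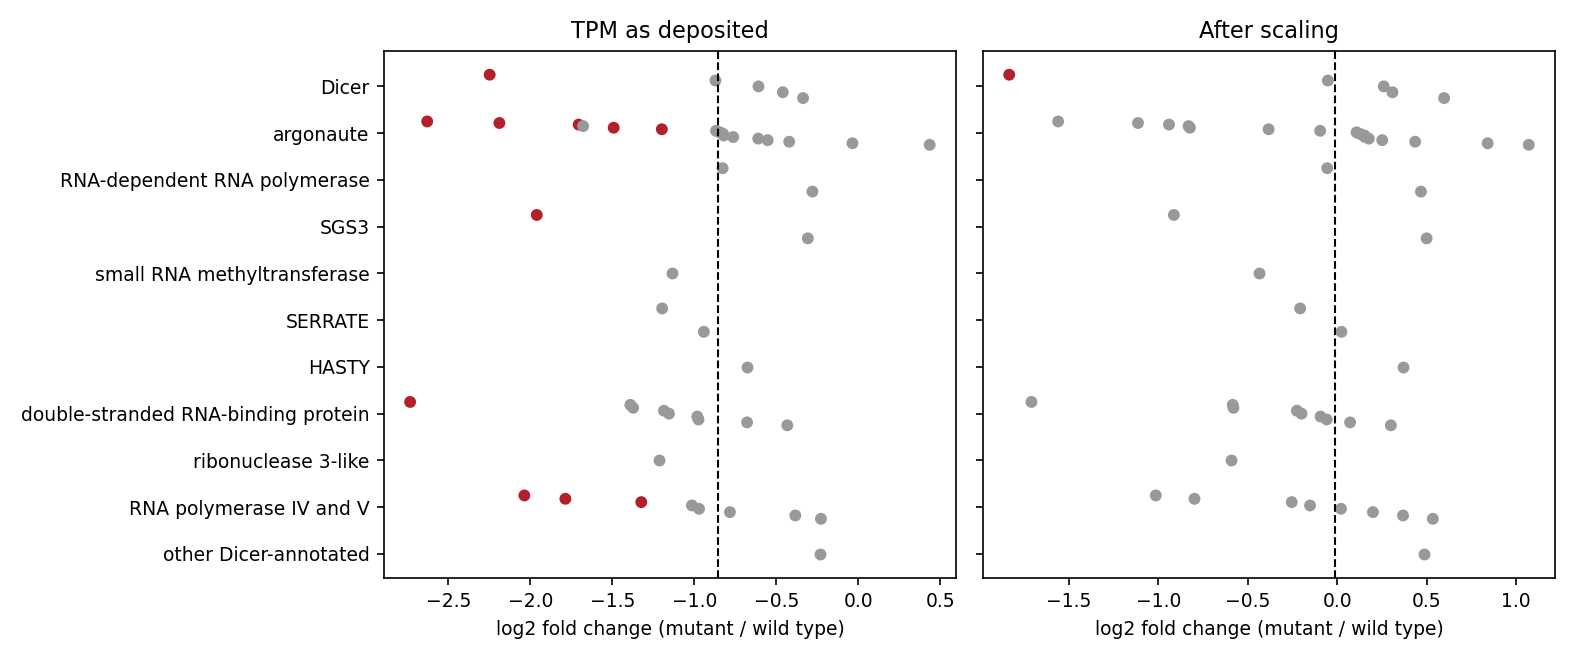
Log2 fold change (mutant over wild type) of the tested Dicer genes and of the tested genes of each other small RNA list, on deposited TPM (left) and after scaling (right). Red points passed an adjusted p under 0.05, grey points did not, and the dashed line is the median of all tested genes; on the left 10 list genes and LOC_Os08g05320 are red, on the right only LOC_Os08g05320.

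The genes whose scaled levels were most like a member's were found by the mean absolute difference of centred log2 values over the 6 libraries. For DCL1 these were LOC_Os05g41510, annotated as the elongation factor SPT6 (0.0243), and LOC_Os05g03550 (0.0335). For DCL3a they were LOC_Os12g02390, a vacuolar-sorting receptor (0.0197), and LOC_Os08g17370 (0.0363). For DCL4 they were LOC_Os03g48600 (0.0397) and LOC_Os02g22060 (0.0437), for DCL2a LOC_Os07g36250 (0.0563) and LOC_Os06g48770 (0.0594), and for LOC_Os08g05320 LOC_Os11g40400 (0.0695) and LOC_Os04g31971 (0.0955). No other Dicer member was among them, but candidates were limited to genes with a spread close to the member's. Spreads were 1.07 for DCL1, 0.698 for DCL2a, 0.245 for DCL3a, 0.785 for DCL4 and 2.31 for LOC_Os08g05320. Among tested members only DCL2a and DCL4 could thus be listed for each other, and neither was. For DCL1, DCL3a and LOC_Os08g05320 likeness to another tested member could not be seen, because the limit left those members out.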

How the data were processed

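The gene table held TPM computed by the authors, though it is named as counts; read depth is unknown. The count-based test planned for it was therefore replaced by limma 3.58.1 (R 4.3.3) with a trend on log2(TPM + 1), for genes at 1 TPM or more in at least 3 libraries, with Benjamini-Hochberg adjustment over 16352 genes at 0.05. The same fit was made after median-of-ratios scaling. The submitters' processing notes name Bowtie2, HISAT2 2.1.0, RSEM, StringTie and DESeq2 1.12.4, without roles; no genome build is named in the sources used here. Small RNA libraries are not analysed here.

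The authors' deposited splicing tables held junction read counts, inclusion levels as a fraction from 0 to 1, and a p-value and FDR per event. Per the file headers, read and inclusion columns contradicted each other on group; groups follow the inclusion headings. Reads so assigned gave the deposited levels to within 0.0005. Most kinds had 2 wild-type libraries. A quasi-binomial model was fitted to events with 20 junction reads in all libraries, moderated by squeezeVar, with a call at an adjusted p under 0.05 and a difference of at least 0.1. On simulated data this model recovered no planted change after adjustment, so a prior fitted to events with 20 or more reads of the rarer form was added as an alternative. That change was made after the first model's results had been seen, and the simulated overdispersion was also reset from a guess to an estimate from the data; in all 3 models, limma on logit levels included, were fitted, and values of each are given.

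Members and lists were chosen with earlier results of these data known. All 7 members are named, with the 3 list genes of smallest p on TPM and the 2 genes most like each tested member, among those with 0.8 to 1.25 times its spread. The SERRATE list was matched on the whole word, which leaves out a SWR1 complex gene annotated serrated leaves. Sums were compared by exact permutation. Python 3.11.15, numpy 2.4.6, pandas 2.3.3 and matplotlib 3.10.9 were used.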

Additional observations from a re-analysis of the deposited data

How the results depend on the processing

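Scaling turned the sign of DCL1 (0.60), DCL2a (0.26) and DCL4 (0.31), with or without the replicate block, and of the summed TPM (0.11); DCL3a after scaling ran from -0.10 to 0.0061 with 1 library left out. The count of changed genes on TPM, 4548, was 431 after scaling, 379 without storage protein genes, 107 with no filter, 132 with the replicate block, 116 with block and scaling, and 94 to 8124 with 1 library left out. After scaling, 431 became 116 with the block, 266 with no filter (added after seeing the data), and 153 to 2367 with 1 library left out. The only member called was LOC_Os08g05320, at 0 in all mutant libraries and tested only through the wild type, so its calls say nothing of stability. On TPM 0 members were called with block and scaling (adjusted p = 0.0777). After scaling 0 members were called with the block or with no filter (adjusted p = 0.0631), and 0 to 1 with 1 library left out. Deviations of same-numbered libraries from their group means correlated at -0.53, 0.21 and -0.09. Those of differently numbered libraries ran from -0.56 to 0.54. So few libraries cannot show whether replicate numbers pair the groups, and the labels do not say.

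Splicing calls, 26, were 12 at 50 reads, 42 with no minimum difference, 12 with the added prior, 14 with limma on logit levels, 0 with any 1 library left out (196 to 280 events then had an unadjusted p under 0.05), and 798 at the FDR of the authors' deposited table. The DCL4 exon pair, not tested at 50 reads, was called in none of the others, with adjusted p between 0.432 and 0.757 in the models fitted here and an FDR of 0.0795 in the authors' deposited table. Without LOC_Os08g05320 in the sum, the DCL3a share difference (mutant minus wild type) went from -2.02 to -5.13 percentage points. For the other changes the cause was not tested. TPM keeps no depth, so low members such as DCL3b and DCL2b have no counting interval.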
